A study of Mus musculus with 12 samples.

Results

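The excitability of a skeletal muscle fibre rests on ion channels in its surface membrane, the sarcolemma, and 7 genes for such channels were followed here in developing mouse muscle: *Scn4a*, *Clcn1*, *Kcnj2*, *Kcnj11*, *Kcnc4*, *Kcnq5* and *Kcnn3*. They were named as sodium, chloride and potassium channel genes of the muscle membrane in fetal and adult forms. The rule holds no measured value, but it was made with earlier results of these data known. They are 7 of the 55450 genes in the count table, and all 7 were among the 19276 genes with enough reads to be tested. RNA came from the tibialis anterior (TA), which lifts the foot at the ankle, in WT mice with the genetic background 129Pas, which the methods call 129SvPas. The mice were at the embryonic stage E18.5, shortly before birth, or had an age of 2 wks or 7 wks. Each age had 4 mice with 1 library from each, 12 libraries in all, and the labels name no mutation, transgene or treatment. The study sequenced this RNA to follow splicing while muscle matures after birth, whereas the values here are reads summed over all transcripts of a gene.

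A muscle action potential starts when voltage-gated sodium channels open and let sodium in. Potassium and chloride channels then bring the membrane back to rest. In adult muscle most of the resting conductance is carried by chloride channels, and mutations of the muscle chloride or sodium channel cause myotonia or periodic paralysis. Fetal and denervated muscle fibres are known to use channels that innervated adult fibres largely lack, among them a small-conductance potassium channel. In RNA of whole muscle, fewer cells of a type and less RNA per cell cannot be told apart.

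To show the sequence next to these genes, the 250 bases before the transcription start are printed for *Kcnc4*, *Clcn1* and *Scn4a*, the members with the largest TMM-scaled rise to 2 wks, and for *Kcnn3*, the member that fell. The windows come from RefSeq on GRCm38.p6, which held an entry for 6 of the 7 members and none for *Kcnj11*. They read 5′ to 3′ on the strand of the gene, at chr3:107458899-107459148 (minus strand) for *Kcnc4*, chr6:42286435-42286684 (plus strand) for *Clcn1*, chr11:106349391-106349640 (minus strand) for *Scn4a* and chr3:89519914-89520163 (plus strand) for *Kcnn3*. Capitals mark matches to the E-box letters CAGCTG or CAGGTG, which muscle bHLH factors such as MyoD can bind, on either strand, and to the MEF2 motif, the binding motif of the MEF2 factors.
Kcnc4: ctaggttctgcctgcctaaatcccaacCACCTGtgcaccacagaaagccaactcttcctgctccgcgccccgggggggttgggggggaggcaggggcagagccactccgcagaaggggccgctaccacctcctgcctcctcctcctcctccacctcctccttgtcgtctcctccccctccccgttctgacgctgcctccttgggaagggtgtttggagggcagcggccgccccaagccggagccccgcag
Clcn1: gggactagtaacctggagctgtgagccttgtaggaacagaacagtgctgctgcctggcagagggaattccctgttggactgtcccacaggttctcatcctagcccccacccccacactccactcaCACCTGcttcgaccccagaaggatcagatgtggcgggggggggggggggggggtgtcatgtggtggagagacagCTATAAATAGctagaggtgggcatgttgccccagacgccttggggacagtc
Scn4a: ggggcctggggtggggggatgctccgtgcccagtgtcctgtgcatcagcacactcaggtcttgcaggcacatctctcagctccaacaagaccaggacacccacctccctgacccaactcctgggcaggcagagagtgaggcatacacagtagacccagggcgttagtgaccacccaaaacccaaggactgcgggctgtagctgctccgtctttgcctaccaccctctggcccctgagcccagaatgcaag
Kcnn3: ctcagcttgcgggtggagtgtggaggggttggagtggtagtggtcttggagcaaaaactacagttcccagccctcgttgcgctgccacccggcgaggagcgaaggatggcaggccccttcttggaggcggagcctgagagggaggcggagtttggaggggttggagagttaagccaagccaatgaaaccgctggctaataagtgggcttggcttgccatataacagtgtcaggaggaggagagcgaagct
In the *Kcnc4* window the reverse complement of CAGGTG began 223 bases before the start (position -223). The *Clcn1* window held the same letters at position -125 and a MEF2 match at position -51, which overlaps a TATAAA. None of these motifs was found in the *Scn4a* and *Kcnn3* windows, which says only that these letters are not in this window. Of all 32851 RefSeq windows of this length, 17.2% held CAGGTG, 13% held CAGCTG, 2.9% held the MEF2 motif and 7.6% held TATAAA on the strand of the gene.

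The libraries held 63018968 to 123449246 reads on genes, so that counting error was small for the members, which had at least 396 reads in every library. Reads on the 20 most abundant genes made up 13.8% to 16.1% before birth, 33.2% to 35.6% in 2 wks libraries and 36.4% to 37.8% in 7 wks libraries. Values below are CPM, read counts relative to library size, with the sizes adjusted by the trimmed mean of M-values (TMM). Scaling to the total count instead moved the median log2 change of all tested genes from -0.09 to -1.02 between E18.5 and 2 wks. Between 2 and 7 wks it moved from -0.03 to -0.38. With the total count without the 20 most abundant and the mitochondrial genes, these medians were -0.57 and -0.31. The cause of these shifts was not tested. Calls below are those with TMM unless another setting is named. The 6 markers of muscle fibres were found in every library. Their summed level was 6024 to 13580 CPM before birth, 122500 to 156700 in the libraries of 2 wks and 142700 to 174600 in those of 7 wks. Beyond age, some libraries stood apart in markers of other tissues. Replicate 1 at 2 wks held 442.4 CPM in sum over the markers of Schwann cells and nerve against 83.7 to 158.5 in the other 2 wks libraries, and replicate 2 at E18.5 held 20.2 CPM of the skin keratin *Krt10* against 1.47 to 3.63. The same E18.5 library was also the highest of its age in muscle fibre markers, with 13580 CPM in sum against 6024 to 7666. Red blood cell markers summed to 476 and 755.1 CPM in replicates 1 and 2 at 2 wks against 145.5 and 148.2 in the other two, and fibroblast markers to 2868 CPM in replicate 1 at 7 wks against 818.8 to 1375. Leaving out any library kept all 7 members called between E18.5 and 2 wks and between E18.5 and 7 wks.

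From E18.5 to 2 wks, all 7 channel genes changed at an adjusted p under 0.05 (quasi-likelihood test of edgeR, p-values adjusted over all tested genes by the Benjamini-Hochberg method). *Scn4a*, *Clcn1*, *Kcnj2*, *Kcnj11*, *Kcnc4* and *Kcnq5* rose and *Kcnn3* fell. In this interval 31.5% of all tested genes were called higher and 34.2% lower. With scaling to the total count, 5 members were called higher and 1 lower, beside 13.2% and 61.8% of all genes, and *Kcnj2* was not called. After 2 wks 4 members rose (*Scn4a*, *Clcn1*, *Kcnj11* and *Kcnq5*) and 0 fell, beside 13.5% of all genes called higher and 13.9% lower. Only *Scn4a* and *Kcnq5* of these were called with scaling to the total count, beside 4.92% of all genes higher and 28.0% lower. Likewise 2 members were called in this interval without replicate 1 at 2 wks, and 2 without replicate 2 at 2 wks. Calls over all genes fell too, from 5296 of 19276 to 3472 of 19871 and 3705 of 19894 in these fits. Over the whole span from E18.5 to 7 wks the count was again 6 higher and 1 lower, beside 34.3% and 37.1% of all genes. Scaled to the total count it was 5 higher and 1 lower, beside 11.9% and 69.0% of all genes. The median log2 change of the 7 members was 2.55, 0.66 and 3.75 in these 3 comparisons, and that of all tested genes was -0.09, -0.03 and -0.09. The 6 markers of muscle fibres had medians of 3.81, 0.34 and 3.72, with 6, 0 and 6 of them called higher and 0 lower. The part of muscle fibre content in the member values was not tested.

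**Figure D1:**
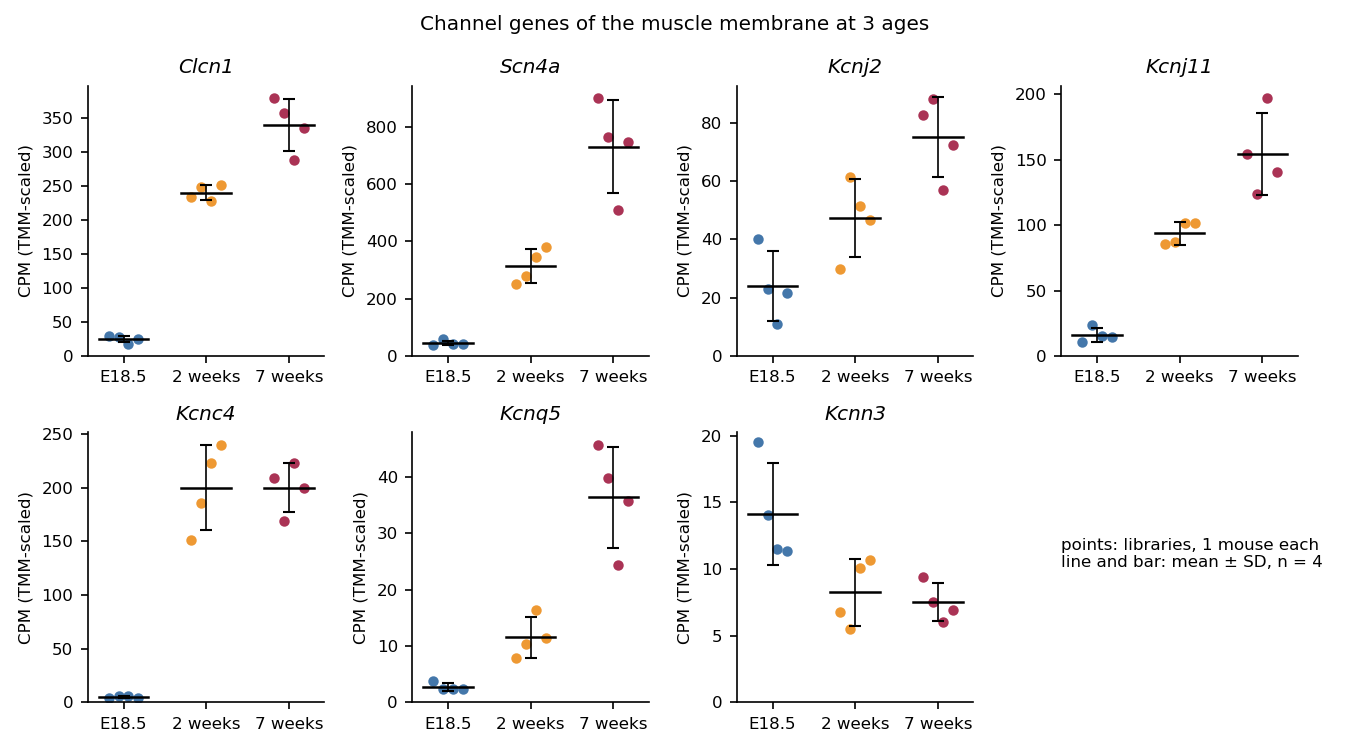
Level of each of the 7 channel genes in every library, in TMM-scaled CPM on a linear axis from 0, at the 3 ages. Points are libraries and the line and bar are the mean ± SD (n = 4). *Scn4a*, *Clcn1*, *Kcnj11* and *Kcnq5* do not overlap between any of the ages, *Kcnc4* is at the same level at 2 and 7 wks, and *Kcnn3* is highest at E18.5.

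*Scn4a* (ENSMUSG00000001027, minus strand of chromosome 11 of GRCm39, 106208370 to 106256385) encodes the sodium channel that carries the upstroke of the action potential in adult muscle. Its libraries held 39.6, 57.6, 43.1 and 41.3 CPM at E18.5, and 252, 278.5, 345 and 379 at 2 wks. At 7 wks they held 899.8, 766, 509.8 and 747 CPM. The ages did not overlap, and the lowest library of 7 wks, replicate 3, was still above the highest of 2 wks. The log2 fold change was 2.79 ± 0.22 (SE, n = 4 mice per age) from E18.5 to 2 wks (edgeR adjusted p = 2.57e-07) and 1.22 ± 0.20 from 2 to 7 wks (edgeR adjusted p = 0.000927). Both rises were called in every alternative run, at log2 changes of 1.85 to 2.93 in the first interval and 0.89 to 1.36 in the second. The span of *Scn4a* overlaps by 88 bp that of *Prr29* on the other strand, which took 9499 reads in all libraries against 301715 on *Scn4a*.

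The accessory subunits of sodium channels divided. *Scn4b* went from 2.73 to 5.87 CPM at E18.5 to 244.5 to 446 at 2 wks. Its log2 fold change was 6.26 ± 0.31 (edgeR adjusted p = 7.13e-09), against 2.79 for *Scn4a* itself. Between 2 and 7 wks *Scn4b* rose further, by 0.94 ± 0.25 (edgeR adjusted p = 0.0132). *Scn3b* fell from 77.4 to 191 CPM at E18.5 to 2.15 to 6.14 at 2 wks, a log2 change of -4.90 ± 0.40 (edgeR adjusted p = 4.42e-07). *Scn2b* held 3.15 to 4.98 CPM over all ages and was called in neither interval with TMM, but was called lower to 2 wks with scaling to the total count (-0.99, edgeR adjusted p = 0.000315). The calls of *Scn4b* and *Scn3b* in the first interval were also made after removal of the GC trend and with sizes set by the total count or the upper quartile.

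*Clcn1* (ENSMUSG00000029862, plus strand of chromosome 6, 42263595 to 42292718) encodes the chloride channel that sets most of the resting conductance of adult muscle. Its 4 libraries held 29.2, 27.3, 18.1 and 25.5 CPM at E18.5. At 2 wks they held 234, 248.5, 228 and 251, and at 7 wks 379, 357, 288 and 335. The ages did not overlap, and the 2 wks libraries lay close together, at 240.5 ± 11.2 CPM (SD, n = 4). The log2 fold change was 3.26 ± 0.17 to 2 wks (edgeR adjusted p = 1.02e-08), at 2.34 to 3.35 in the alternatives, all of them called. The later change, from 2 to 7 wks, was 0.50 ± 0.16 (edgeR adjusted p = 0.0317), and this smaller rise was lost in 12 of 21 alternatives, with adjusted p of 0.0124 to 0.478 over all of them. Scaled to the total count, the 2 wks libraries held 188 to 229 CPM and the 7 wks libraries 192 to 265, so that the ages overlapped. The span of *Clcn1* overlaps by 473 bp that of *Fam131b* on the other strand, which took 1713 reads in all against 172732 on *Clcn1*.

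The chloride channel was set beside the sodium channel within each library, since such a ratio does not depend on how libraries are scaled. No ratio was corrected for a library's trend over GC content. Exon length joined the exons of all annotated transcripts of a gene. The level of a ratio thus depends on the annotation, while its change between ages does not. Per kb of exon, the ratio of *Clcn1* to *Scn4a* was 1.08, 0.691, 0.614 and 0.901 at E18.5, 1.35, 1.30, 0.966 and 0.967 at 2 wks, and 0.615, 0.680, 0.825 and 0.654 at 7 wks. Every library of 2 wks was above every library of 7 wks, a log2 difference of -0.72 from 2 to 7 wks (two-sided exact permutation test over 70 regroupings, p = 0.029, the smallest that 4 against 4 libraries allow, and adjusted p = 0.0429 over 12 tests of ratios). The libraries of E18.5 overlapped both, with log2 differences of 0.50 from E18.5 to 2 wks and -0.22 from E18.5 to 7 wks (exact permutation, adjusted p = 0.137 and 0.343).

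**Figure D2:**
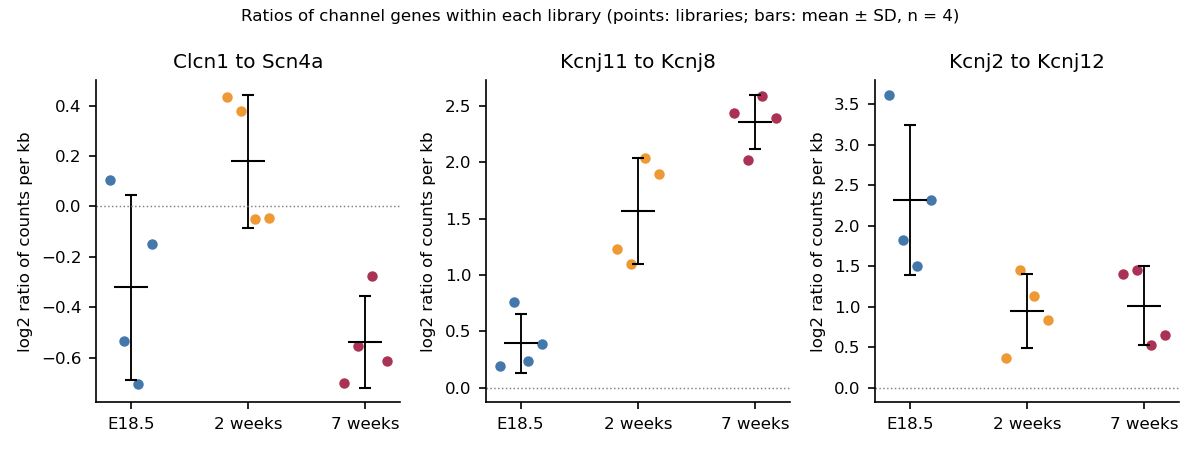
Log2 ratio of reads per kb of exon between 2 channel genes within each library at the 3 ages, for *Clcn1* to *Scn4a*, *Kcnj11* to *Kcnj8* and *Kcnj2* to *Kcnj12*. Points are libraries, bars are the mean ± SD (n = 4), and the dotted line marks equal levels. The mean log2 ratio of *Kcnj2* to *Kcnj12* falls from 2.32 to 0.95 and 1.01.

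Inward rectifier channels hold the membrane near its resting potential, and *Kcnj2* (ENSMUSG00000041695, plus strand of chromosome 11, 110956981 to 110967665) encodes the form whose mutations cause periodic paralysis with cardiac arrhythmia. The libraries of E18.5 held 40.3, 23.1, 10.9 and 21.6 CPM, those of 2 wks 29.7, 61.5, 51.3 and 46.7, and those of 7 wks 82.7, 88, 57.0 and 72.3. E18.5 overlapped 2 wks, and 2 wks overlapped 7 wks, but E18.5 and 7 wks did not overlap. The log2 fold change of *Kcnj2* to 2 wks was 0.98 ± 0.32 (edgeR adjusted p = 0.0147). Scaled to the total count it was 0.07 ± 0.30 (edgeR adjusted p = 0.852). Scaled to the total count without the 20 most abundant and the mitochondrial genes it was 0.51 ± 0.30 (edgeR adjusted p = 0.147). With the GC trend removed it was 1.46 and was called. Between 2 and 7 wks it was 0.66 ± 0.32, which was not called (edgeR adjusted p = 0.134, 95% interval -0.02 to 1.35). With only the 8 libraries of these 2 ages in the fit it was 0.63 ± 0.21 and was called (edgeR adjusted p = 0.0424). Over the whole span *Kcnj2* rose by 1.65 ± 0.32 with TMM (edgeR adjusted p = 0.000417), but by 0.39 ± 0.30 with scaling to the total count, where the call was lost (edgeR adjusted p = 0.245).

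A related inward rectifier gene, *Kcnj12*, rose from 3.67 to 7.26 CPM at E18.5 to 25.2 to 29.2 by 2 wks and 35.0 to 51.5 by 7 wks. Its log2 fold change was 2.40 ± 0.21 and then 0.65 ± 0.20 (edgeR adjusted p = 6.58e-07 and 0.0267), of which the second was not called with scaling to the total count (0.30). Per kb of exon, *Kcnj2* exceeded *Kcnj12* 12.3-, 3.55-, 2.84- and 4.98-fold at E18.5, 1.29-, 2.73-, 2.19- and 1.79-fold at 2 wks and 2.65-, 2.74-, 1.45- and 1.57-fold at 7 wks. Every E18.5 library was above every later library. The log2 ratio fell by 1.37 to 2 wks and by 1.31 over the whole span (exact permutation p = 0.029, adjusted p = 0.0429 for each), while 2 and 7 wks differed by 0.06 (exact permutation, adjusted p = 0.857). Without replicate 1 at E18.5, whose ratio of 12.3 was the highest, the fall to 2 wks was still by 0.94. This ratio was not corrected for GC content, in which *Kcnj2* transcripts are low (41.2%, percentile 9.92 of the tested genes).

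*Kcnj11* (ENSMUSG00000096146, minus strand of chromosome 7, 45743377 to 45750188) encodes the pore of the ATP-sensitive potassium channel of muscle, which opens when energy runs low. It held 10.8, 23.7, 15.1 and 14.4 CPM at E18.5, 85.8, 86.8, 102 and 101 at 2 wks, and 155, 124, 197 and 141 at 7 wks. The ages did not overlap. The log2 fold change was 2.55 ± 0.23 to 2 wks (edgeR adjusted p = 8.47e-07) and 0.71 ± 0.22 from 2 to 7 wks (edgeR adjusted p = 0.0253). All 21 alternatives called the first rise, at 1.55 with the GC trend removed up to 2.81. *Kcnj11* transcripts are rich in GC (57.1%, percentile 90.7 of the tested genes). The second rise was lost in 5 of 21 alternatives, among them scaling to the total count (0.37 ± 0.21, edgeR adjusted p = 0.190) and the fits without replicate 1 or 2 at 2 wks or replicate 3 at 7 wks.

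The other pore gene of these channels, *Kcnj8*, is known from vascular smooth muscle and pericytes. It rose by 1.45 ± 0.18 to 2 wks (edgeR adjusted p = 1.29e-05) and changed by -0.12 ± 0.18 from 2 to 7 wks (not called, edgeR adjusted p = 0.647). Per kb of exon, *Kcnj11* exceeded *Kcnj8* 1.141- to 1.694-fold at E18.5, 2.14- to 4.11-fold by 2 wks and 4.05- to 6.01-fold by 7 wks. The log2 ratio rose by 1.17 in the first interval and by 1.96 over the whole span (exact permutation p = 0.029, adjusted p = 0.0429 for each). After 2 wks it rose by 0.79 in 15 of 16 pairs of libraries, which missed the threshold after adjustment (exact permutation p = 0.0571, adjusted p = 0.0762). This ratio was not corrected for GC content, in which *Kcnj11* transcripts are rich (percentile 90.7 of the tested genes). The log2 rise of *Kcnj11* to 2 wks was 2.55 with TMM but 1.55 with the GC trend removed. The 6 markers of smooth muscle and pericytes summed to 344.2 to 426 CPM before birth, 980.4 to 1149 by 2 wks and 860.9 to 1095 by 7 wks, and their part in the *Kcnj8* values was not tested. The regulatory subunit gene of the muscle channel, *Abcc9*, rose by 0.83 ± 0.20 and then by 0.57 ± 0.20 with TMM (edgeR adjusted p = 0.0024 and 0.0467). Scaled to the total count its log2 changes were -0.09 and 0.23, neither of them called, and the second was not called with the GC trend removed (0.38). The part of smooth muscle and pericytes in the *Abcc9* values was not tested either. *Abcc8*, the subunit of pancreatic beta cells, held 1.32 to 3.22 CPM over all ages and was called in neither interval with TMM. It was called lower to 2 wks with scaling to the total count (-1.06, edgeR adjusted p = 0.0100) and with the GC trend removed (-1.15, edgeR adjusted p = 0.00368).

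*Kcnc4* (ENSMUSG00000027895, minus strand of chromosome 3, 107345603 to 107367781), which encodes a fast voltage-gated potassium channel of the KCNC family, had the steepest rise of the 7. It held 4.14, 6.19, 6.22 and 4.38 CPM at E18.5, and 151, 186, 223 and 239.6 at 2 wks. At 7 wks it held 209, 169, 223 and 199.5 CPM, within the range of 2 wks. The rise to 2 wks was 38.2-fold, a log2 fold change of 5.25 ± 0.22 (edgeR adjusted p = 1.81e-09), and all alternatives called it, at 3.73 with the GC trend removed up to 5.40. GC content matters here because *Kcnc4* transcripts are rich in it (62.1%, percentile 98.9 of the tested genes). Thereafter the log2 change to 7 wks was 0.00 ± 0.18 (95% interval -0.40 to 0.40), and its sign turned with the scaling, at -0.33 with the total count and 0.53 with the GC trend removed, both not called.

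Of the other KCNC genes, *Kcnc1* rose by 3.15 ± 0.27 (edgeR adjusted p = 7.09e-07) to 2 wks, while *Kcnc2*, at 0.44 to 1.21 CPM over all ages, was called in neither interval with TMM. From 2 to 7 wks *Kcnc2* was called lower with scaling to the total count (-1.22, edgeR adjusted p = 0.0149) and with the GC trend removed (-1.06, edgeR adjusted p = 0.0168), against -0.85 with TMM (edgeR adjusted p = 0.0683). *Kcne3*, an accessory subunit known to pair with the *Kcnc4* channel, fell from 6.25 to 8.37 CPM at E18.5 to 1.11 to 2.11 at 2 wks, a log2 change of -2.26 ± 0.25 (edgeR adjusted p = 4.95e-06).

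*Kcnq5* (ENSMUSG00000028033, minus strand of chromosome 1, 21468627 to 22032166) encodes a slowly opening potassium channel of the KCNQ family and rose in both intervals. It held 3.76, 2.29, 2.40 and 2.34 CPM at E18.5, 7.88, 10.3, 16.5 and 11.4 at 2 wks, and 45.7, 39.8, 24.4 and 35.7 at 7 wks, with no overlap between ages. The log2 fold change was 2.09 ± 0.26 to 2 wks (edgeR adjusted p = 1.22e-05) and 1.66 ± 0.25 from 2 to 7 wks (edgeR adjusted p = 0.000496), and both were called in all 21 alternatives. The pseudogene *Gm7658*, on the same strand within *Kcnq5*, took 1727 reads in all libraries against 14043 on *Kcnq5*. Among the other KCNQ genes, *Kcnq1*, at 1.95 to 3.20 CPM at E18.5, fell from 2 to 7 wks (-0.76 ± 0.24, edgeR adjusted p = 0.0307), which was not called with the GC trend removed (-0.48, edgeR adjusted p = 0.0760). To 2 wks the log2 change of *Kcnq1* was 0.0066 with TMM, which was not called (edgeR adjusted p = 0.982), whereas *Kcnq1* was called lower with scaling to the total count (-0.92) and with the GC trend removed (-1.18). *Kcnq3* had 1 to 50 reads per library.

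*Kcnn3* (ENSMUSG00000000794, plus strand of chromosome 3, 89427460 to 89582439) encodes the small-conductance calcium-activated potassium channel known from fetal and denervated muscle, and was the only member to fall. It held 19.5, 14.0, 11.5 and 11.4 CPM at E18.5, 6.78, 5.49, 10.1 and 10.7 at 2 wks, and 9.43, 7.56, 6.07 and 6.93 at 7 wks. E18.5 lay above both later ages without overlap, and 2 and 7 wks overlapped. The log2 fold change was -0.77 ± 0.24 to 2 wks (edgeR adjusted p = 0.0125), at -1.72 to -0.51 in the alternatives, all of them called. From 2 to 7 wks it was -0.14 ± 0.24 (not called, edgeR adjusted p = 0.703, 95% interval -0.66 to 0.38). Fibroblast markers fell in the same interval as *Kcnn3*: 4 of 6 were called lower to 2 wks with a median log2 change of -0.94, and their summed level went from 4630 to 8851 CPM at E18.5 to 3248 to 4843 at 2 wks. Of the 5 satellite cell markers, 3 were called lower, and 34.2% of all tested genes were. The satellite cell markers summed to 59.8 to 93.9 CPM before birth and 43.4 to 47.2 at 2 wks. At 7 wks, replicate 1 was the highest library both for *Kcnn3* (9.43 CPM) and for the fibroblast markers (2868 CPM). At the other ages the highest libraries differed. At 2 wks *Kcnn3* was highest in replicate 4 and lowest in replicate 2. The fibroblast markers were lowest in replicate 4 (3248 CPM) and highest in replicate 2 (4843 CPM). At E18.5 *Kcnn3* was highest in replicate 1 and the fibroblast markers in replicate 2 (8851 CPM). The part of these cells in the *Kcnn3* values was not tested.

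Of the 4 other calcium-activated genes, 3 rose to 2 wks with TMM, beside 31.5% of all tested genes called higher. *Kcnn4*, with 18 to 212 reads per library, was not called. *Kcnn1* held 1.15 to 1.52 CPM at E18.5, 9.22 to 16.8 by 2 wks and 15.8 to 29.6 by 7 wks, a log2 fold change of 3.19 ± 0.25 and then 0.82 ± 0.23 (edgeR adjusted p = 3.31e-07 and 0.0193). *Kcnn2* rose by 1.07 ± 0.21 to 2 wks (edgeR adjusted p = 0.000449) and *Kcnma1*, the large-conductance channel, by 0.82 ± 0.30 (edgeR adjusted p = 0.0259). With scaling to the total count the changes of *Kcnn2* and *Kcnma1* were 0.16 and -0.07, neither of them called, whereas *Kcnn1* was called at 2.25. The second rise of *Kcnn1* was not called with that scaling (0.49, edgeR adjusted p = 0.0950).

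**Figure D3:**
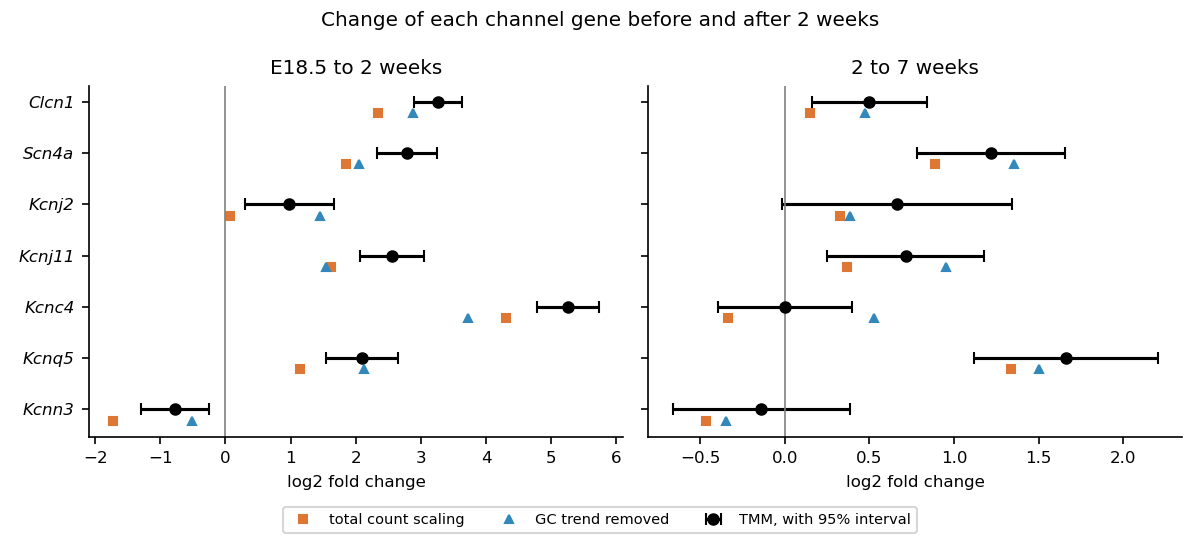
Log2 fold change of each channel gene from E18.5 to 2 wks (left) and from 2 to 7 wks (right), with different x axes. Black points are the TMM fit with its 95% interval, squares the scaling to the total count and triangles the fit with the GC trend removed. On the left 6 genes lie above 0 and *Kcnn3* below it in every fit, and on the right only *Scn4a* and *Kcnq5* were called in all 3 fits.

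Whether the change was larger before than after 2 wks was tested directly, as the log2 change from 2 to 7 wks minus that from E18.5 to 2 wks. It was -2.77 ± 0.26 for *Clcn1*, -1.57 ± 0.34 for *Scn4a*, -1.84 ± 0.36 for *Kcnj11* and -5.25 ± 0.31 for *Kcnc4* (edgeR adjusted p = 1.01e-05, 0.00336, 0.00194 and 1.99e-07). Thus 4 of 7 members were called lower and 0 higher, beside 21.6% and 16.8% of all tested genes. This was not particular to the members. All 6 markers of muscle fibres were called lower too, with a median of -3.90 against -1.57 for the members. Of the 34 other channel genes tested, 12 were called lower and 4 higher, with a median of -0.90. For *Kcnq5* the difference was -0.43 ± 0.43, for *Kcnj2* -0.32 ± 0.54 and for *Kcnn3* 0.63 ± 0.43, none of them called (edgeR adjusted p = 0.439, 0.669 and 0.254). Scaled to the total count, the same 4 members were called lower and *Kcnn3* was called higher (1.26 ± 0.40, edgeR adjusted p = 0.0202). Of all tested genes 12.1% were then called lower and 31.7% higher, so that the balance of all genes turned, and their median difference was 0.58 against -0.0029 with TMM. With the GC trend removed only *Clcn1* and *Kcnc4* were called lower, beside 17.4% of all genes, and *Scn4a* (-0.70, edgeR adjusted p = 0.154) and *Kcnj11* (-0.60, edgeR adjusted p = 0.0600) were not.

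With TMM, 100% of the log2 change from E18.5 to 7 wks had been reached by 2 wks for *Kcnc4* and 86.7% for *Clcn1*. The share was 78.1% for *Kcnj11*, 69.6% for *Scn4a* and 55.8% for *Kcnq5*. The fall of *Kcnn3* stood at 84.6%. For *Kcnj2* the share was 59.6% with TMM, 16.8% with scaling to the total count and 79% with the GC trend removed. The other shares also depend on the processing. With the GC trend removed, *Kcnc4* stood at 87.6%, *Clcn1* at 85.9%, *Kcnj11* at 61.9%, *Scn4a* at 60.3%, *Kcnn3* at 59.5% and *Kcnq5* at 58.7%. With scaling to the total count, *Kcnq5* stood at 46.3% and the remaining members at 67.4% to 108%.

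The order of the channels was compared within each age on the scale of CPM per kb of exon. The exons of all annotated transcripts of a gene were joined for this length, whichever transcripts were present. They cover 5900 bp over 20 transcripts for *Clcn1* and 5471 bp over 1 for *Kcnj2*, so the order depends on the annotation. The scale was also not corrected for GC content, in which *Kcnc4* and *Kcnj11* transcripts are rich (percentiles 98.9 and 90.7 of the tested genes). The log2 rise of *Kcnc4* to 2 wks was 5.25 with TMM but 3.73 with the GC trend removed, so its places depend on that choice. At E18.5 *Scn4a* (5.27 ± 0.96 CPM per kb, SD, n = 4), *Kcnj2* (4.38 ± 2.22), *Kcnj11* (4.35 ± 1.49) and *Clcn1* (4.24 ± 0.82) overlapped their neighbours in the order. They lay above *Kcnn3* (1.35 ± 0.37) and *Kcnc4* (1.04 ± 0.22), which overlapped each other, and *Kcnq5* (0.351 ± 0.092) was lowest. By 2 wks *Kcnc4* had moved from sixth place to the leading group, with *Clcn1* at 40.8 ± 1.9, *Kcnc4* at 39.6 ± 7.8 and *Scn4a* at 36.4 ± 6.8 CPM per kb, whose libraries overlapped. *Kcnc4* was above *Scn4a* within each of these 4 libraries, and *Clcn1* above *Kcnc4* in 2. *Kcnj11* (25.5 ± 2.4), *Kcnj2* (8.65 ± 2.43), *Kcnq5* (1.5 ± 0.47) and *Kcnn3* (0.789 ± 0.241) followed without overlap. At 7 wks *Scn4a* led with 84.9 ± 18.8 CPM per kb, above *Clcn1* (57.6 ± 6.6) within each of the 4 libraries although their ranges overlapped. *Clcn1* overlapped *Kcnj11* (41.9 ± 8.5), which overlapped *Kcnc4* (39.6 ± 4.6), and *Kcnj2* (13.7 ± 2.5), *Kcnq5* (4.73 ± 1.17) and *Kcnn3* (0.717 ± 0.136) lay below them in that order without overlap.

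A list of 36 other channel genes, from the same families and complexes as the 7, gave a mixed picture. Of the 34 that could be tested, 17 were called higher and 7 lower from E18.5 to 2 wks, with a median log2 change of 0.72, beside 31.5% of all tested genes called higher and 34.2% lower. Scaling to the total count called 10 higher and 13 lower, beside 13.2% and 61.8% of all genes, so the balance of directions in this list depends on the scaling. Between 2 and 7 wks 7 were called higher and 5 lower, beside 13.5% and 13.9% of all genes, and 2 and 11 with scaling to the total count, beside 4.92% and 28.0%. The share of the list called lower in this interval was thus near that of all genes with TMM. The count of 12 called in either direction fell to 7 without replicate 1 at 2 wks, replicate 2 at 2 wks or replicate 4 at 7 wks. Over all genes the count fell from 5296 to 3472, 3705 and 4014 in these fits. From E18.5 to 7 wks 17 were called higher and 9 lower with TMM, beside 34.3% and 37.1% of all genes, and 8 and 14 with scaling to the total count, beside 11.9% and 69.0%.

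By family, the first interval with TMM brought 3 rises among 5 tested inward rectifiers and partners of the ATP-sensitive channel. The 4 calcium-activated genes had 3 rises, and the 6 genes of the ClC family 2 rises and 2 falls. Of all tested genes 31.5% were called higher and 34.2% lower, and the ClC counts were near these shares. With scaling to the total count the same families had 2 rises and 2 falls, 1 rise, and 0 rises and 3 falls. Of all tested genes 13.2% were then called higher and 61.8% lower. *Kcna7*, a shaker-type channel of skeletal muscle and heart, rose from 0.229 to 1.01 CPM at E18.5 to 35.2 to 74.7 at 2 wks (log2 fold change 6.63 ± 0.47, edgeR adjusted p = 1.32e-07). *Kcna5* rose by 2.61 ± 0.24 (edgeR adjusted p = 1.12e-06). *Kcna4*, which carries a fast inactivating current, had 15 to 51 reads per library at E18.5, but 3 reads in a single library at 2 wks and 2 in a single library at 7 wks, with 0 in the others, so that no fold change is given. In the ClC family *Clcn5*, an endosomal chloride and proton exchanger, fell from 80.0 to 143 CPM at E18.5 to 8.55 to 13.7 by 2 wks and 2.87 to 8.67 by 7 wks (log2 change -3.12 ± 0.32 and -1.19 ± 0.30, edgeR adjusted p = 2.58e-06 and 0.0109). *Clcn3* rose by 0.82 ± 0.21 from 2 to 7 wks with TMM (edgeR adjusted p = 0.0119), which was not called with scaling to the total count (0.48). *Clcn4* and *Clcn7* were called higher to 2 wks with TMM, by 0.61 and 0.93, but had log2 changes of -0.32 and -0.0095 with scaling to the total count, and *Clcn7* was not called with the GC trend removed (0.22).

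**Figure D4:**
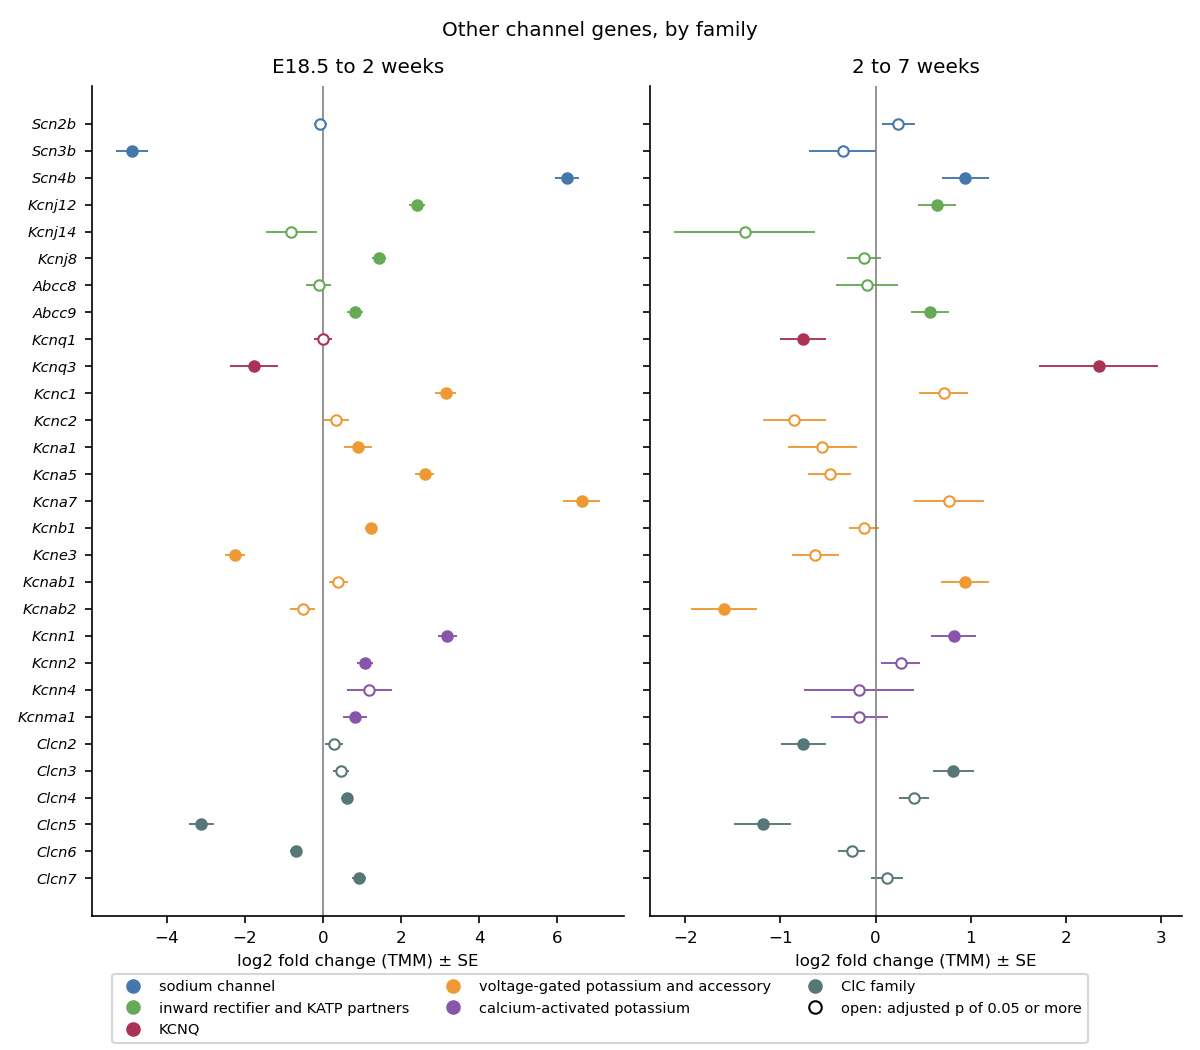
Fitted log2 fold change ± SE (TMM) of 29 other channel genes from E18.5 to 2 wks (left) and from 2 to 7 wks (right), with different x axes and 1 colour for each family, without genes that had 0 reads in a library. Filled points have an adjusted p under 0.05 and open points do not. *Scn4b* and *Kcna7* lie above 6 on the left, *Scn3b* lies below -4, and fewer points are filled on the right (11 against 19).

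The genes whose pattern over the 12 libraries was most like each member were ranked by Pearson's r of log2 CPM among the 8947 genes that averaged 3 or more on that scale. All points share the change with age, so high values of r are common, and they are given as a description. *Clcn1* was most like *Phkg1* (r = 0.997), *Scn4b* (0.997) and *Fbxo40* (0.996), and *Scn4a* like *Man2a2* (0.996), *Smad3* (0.996) and *Dcun1d2* (0.995). Nearest to *Kcnj11* were *Fam219a* (0.998), *Tmed4* (0.995) and *Opa3* (0.994). *Kcnc4* was most like *Tuba8* (0.997) and *Rasa4* (0.997), of which *Tuba8* held 0.458 to 1.25 CPM at E18.5, 199.1 to 369 by 2 wks and 220.2 to 314 by 7 wks. *Kcnq5* lay nearest to *Phkb* (0.996), *Wwp1* (0.993) and *Clip1* (0.993). The values were lower for *Kcnj2* and *Kcnn3*. *Kcnj2* was most like *Shisa2* (0.967), *Ppp2r3a* (0.964) and *Exd2* (0.961), and *Kcnn3* like *Zfp185* (0.950), *Tnmd* (0.947) and *Kera* (0.934). *Tnmd*, a gene of tendon cells, held 47.0 to 166 CPM at E18.5 and 5.26 to 32.3 at the later ages, and the part of tendon in the *Kcnn3* values was not tested.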

How the data were processed

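TA muscle RNA of 12 WT mice was sequenced as stranded polyA libraries with paired ends (4 mice per age). Per the labels and methods, the authors demultiplexed with bcl2fastq 2.17.1.14, trimmed with cutadapt 1.10, mapped with STAR 2.5.3a and counted with HTSeq 0.6.1p1. The methods name GRCm39, whereas the submitters' processing notes name mm10, and the strand setting of the counting is not given in the sources used here. Without it, reads of overlapping genes on opposite strands cannot be told apart. The authors deposited raw read counts per Ensembl gene. The Cufflinks and Cuffdiff analysis of the methods needs reads, so the counts were tested with edgeR 4.0.16 (limma 3.58.1, R 4.3.3): filterByExpr, TMM, a quasi-likelihood fit of all 12 libraries with age as the only term, and Benjamini-Hochberg adjustment over 19276 genes at 0.05. Replicates are separate mice. The biological coefficient of variation was 0.279. Library totals were 63018968 to 123449246.

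Symbols, exons and coordinates come from GENCODE vM39, which held 51477 of the 55450 identifiers. The other 3973 took 0.0394% of the counts. Exon length was that of the joined exons of all annotated transcripts of a gene. Ratios used counts per kb of exon with a pseudocount of 0.5 and two-sided exact permutation tests (scipy 1.17.1), adjusted over 12 tests. Alternatives were other scalings, DESeq2 1.42.0, filters, a replicate block, removal of each library's trend over GC content (known for 98.7% of tested genes), only the 8 libraries compared, and each library left out. The fit was tested on simulated data. The named genes are the 7 members, the list of 36 other channel genes, the marker lists and the 3 genes most like each member. A few genes of these lists are not reported here. The members and lists were chosen with earlier results of these data known. Same-numbered replicates did not deviate together in all pairs (r -0.308 to 0.578), so the numbers were not taken as pairs. Figures were drawn with matplotlib 3.10.9.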

Additional observations from a re-analysis of the deposited data

Results flagged for a closer look

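In groups of 4 libraries, the highest or lowest library was compared with the others by Dixon's ratio, for the members, the other channel genes and the ratios. Of 120 sets, 8 passed, and chance flags about 1 in 20, here 6.0. Among the members *Kcnq5* at E18.5 stood out, with 3.76 CPM in replicate 1 against 2.29 to 2.40. *Clcn6* at E18.5 held 42.3 CPM in replicate 2 against 32.1 to 33.8.

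At 2 wks, *Kcnab2* held 2.15 CPM in replicate 2 against 1.78 to 1.80, and *Kcna4* held 0.0309 CPM there against 0 in the others. At 7 wks, replicate 3 was low for *Kcna1* (0.506 CPM against 1.103 to 1.221), and replicate 1 was low for *Kcne3* (0.622 against 1.07 to 1.09). Replicate 2 at 7 wks was high for *Kcnj14* (0.264 CPM against 0.0766 to 0.100) and for *Kcna4* (0.0311 against 0).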

How the results depend on the processing

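Over all alternatives, 145 of 147 log2 changes of the members from E18.5 to 2 wks and 146 of 147 from E18.5 to 7 wks kept their direction and their side of the threshold, and the exceptions were *Kcnj2* under total-count scalings. From 2 to 7 wks 115 of 147 did. The count of 4 members called from 2 to 7 wks became 2 with scaling to the total count, 2 with the total count without the 20 most abundant and the mitochondrial genes, 5 with only the 8 libraries compared, and 2 to 4 with a library left out. For the other channel genes it was 7 to 13 with a library left out. Over all tested genes the count of 5296 became 6339, 5751, 6171 of 16913, and 3472 to 6145 in the same order of settings. In the contrast of the intervals, 2 members were called with the GC trend removed and 5 with the total count. Of all 19276 tested genes 6473 and 8433 were called there, against 7398 with TMM.

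For the members and the ratios, signs turned only where no call was made. Among the other channel genes, *Abcc9*, *Kcnma1*, *Clcn4* and *Clcn7* were called higher to 2 wks with TMM. Their log2 changes were below 0 with the total count. *Kcnc4* from 2 to 7 wks was -0.33 with the total count, -0.10 with the upper quartile, -0.26 without the 20 most abundant and mitochondrial genes, -0.00060 with DESeq2, -0.010 with no filter, -0.041 with at least 10 counts in every library, -0.034 with the 8 libraries compared and -0.12 to 0.10 with a library left out. In the contrast of the intervals the total count gave 0.26 for *Kcnj2* and 0.18 for *Kcnq5*, and left-out libraries gave -0.76 to 0.0012 for *Kcnq5*. From 2 to 7 wks they gave -0.29 to 0.011 for *Kcnn3* and -0.13 to 0.23 for the log2 ratio of *Kcnj2* to *Kcnj12*. Beyond changes of scaling or fewer libraries, the cause was not tested. Ratios were not tested with a library left out, since the two-sided exact test of 3 against 4 libraries cannot go below p = 0.057.

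With the replicate number as a block, 7, 4 and 7 members were called in the 3 comparisons of ages and 4 in the contrast of the intervals. Of the other channel genes 26, 11 and 27 were called in the 3 comparisons. Of all 19276 tested genes the block called 12470, 5149 and 13611 in the 3 comparisons and 7287 in the contrast. All genes called from 2 to 7 wks fell from 5296 to 3472 without replicate 1 at 2 wks. Depth limits *Kcna4*, *Kcnq3* and *Kcnj4*, with few or 0 reads at some ages.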
